A study of Mus musculus with 10 samples.

Results

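Nonsense-mediated mRNA decay (NMD) factors were followed in mouse Neuro-2a neuroblastoma cells after knockdown of the nuclear RNA-binding protein Sfpq. The factors were taken by gene name: Upf1, Upf2, Upf3a, Upf3b, Smg1, Smg5, Smg6, Smg8 and Smg9. All 9 were found in every RNA library, on 10 RefSeq transcript rows of 30978, or 9 of 23553 genes. Upf1 had 2 rows, and the row with the higher mean stood for it; the other 8 had 1 row each. The 4 groups used were cells given siRNA for mSfpq with poly(A)-selected RNA (3 libraries), cells given siRNA for Luciferase with poly(A)-selected RNA (3 libraries), and 1 library of each treatment from RNA depleted of ribosomal RNA. Luciferase (Luc) is not a mouse gene, so its siRNA serves as the control, and no untransfected cells are used here. Every group was reverse-transfected with RNAiMAX in medium with 2% serum, which the labels call a differentiated condition, and the strain is given as C57BL/6+C57BL/6J+CBA. The labels do not say that replicates came from separate cultures; every p-value therefore rests on differences among libraries that may be only technical.

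NMD degrades mRNAs on which translation ends too early. Upf1, an RNA helicase, is recruited to the terminating ribosome and is phosphorylated by the kinase Smg1, whose partners in the complex are Smg8 and Smg9. Upf2 links Upf1 to Upf3b or its paralog Upf3a, which contact the exon junction complex left on spliced mRNA. Phosphorylated Upf1 then attracts Smg6, an endonuclease that cuts the mRNA, and Smg5, which helps to bring in deadenylation and decapping enzymes. In mammalian cells the mRNAs of several of these factors are themselves known substrates of the pathway, and in humans loss of UPF3B causes intellectual disability.

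Levels are given as RPKM, read counts scaled to transcript length and library size, so that genes can be set side by side. Read totals are unknown, but the spacing of small values placed the relative depth of the poly(A) libraries between 0.629 and 1.28 times that of Luc replicate 1, and that of the rRNA-depleted libraries at 2.65 (Sfpq) and 2.63 (Luc) times. Sfpq itself had 3.98, 4.75 and 6.47 RPKM in the poly(A) Sfpq-siRNA libraries against 56.8, 60.8 and 73.0 RPKM in the Luc libraries. In rRNA-depleted RNA it had 4.43 against 30.8 RPKM. These values belong to its row with the highest mean, which is a noncoding RefSeq transcript. The poly(A) log2 fold change was -3.54 for that row and -3.47 with all rows of the gene averaged. Of 12 sympathetic neuroblast markers, 12 reached a mean of 1 RPKM in Sfpq-siRNA and 11 in Luc poly(A) libraries. No marker of fibroblasts, leukocytes or glia did in either, with summed levels of at most 1.23, 0.118 and 1.78 RPKM in any poly(A) library, and 1 of 3 endothelial markers did in Luc. Among Luc libraries, replicate 3 was the least alike, with Pearson correlations of 0.995 and 0.993 where the other pair had 0.998.

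After Sfpq knockdown the NMD factors did not all move the same way. Smg5, Smg9, Upf2 and Upf1 rose in poly(A) RNA, by 2.13, 1.72, 1.64 and 1.29 times in the ratio of means. Smg6 fell, to 67.7% of its Luc mean. Smg1, Upf3a, Upf3b and Smg8 did not pass the test. The test was limma on log2(RPKM + 0.5), fitted over every gene whose mean was 0.5 RPKM or more, with a Benjamini-Hochberg adjusted p under 0.05 as the threshold; all 9 factors passed that filter. So 4 of 9 factors were higher and 1 of 9 lower, while 21.3% of all 11727 tested genes were higher and 18.6% were lower. The median log2 fold change was 0.26 over the factors and 0.05 over all tested genes. In either direction 5 of 9 factors were called, where 40% of all tested genes were. The groups did not overlap for the same 5 factors, with all Sfpq-siRNA values above in 4 and below in 1. These 5 of 9 are near the share over all tested genes, 52.9%, with 28.2% above and 24.7% below. The count without overlap therefore does not set the factors apart from other genes. In bulk RNA, less RNA in every cell and fewer cells that make it cannot be told apart. Without Sfpq replicate 2, 2 of 9 factors were higher with limma.

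**Figure D1:**
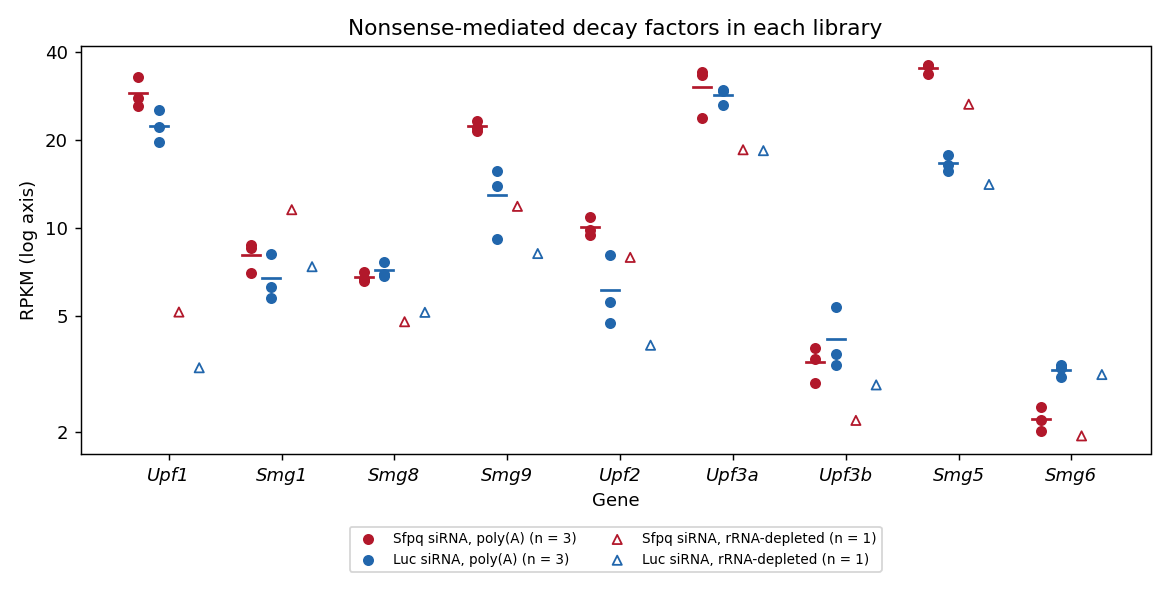
RPKM (log axis) of the 9 NMD factors in each of the 8 libraries; circles are poly(A) libraries with their mean as a bar, open triangles are the single rRNA-depleted libraries, red Sfpq siRNA and blue Luc siRNA. Smg5 lies between 33.8 and 36.3 RPKM in the poly(A) Sfpq-siRNA libraries, above all Luc libraries, while Upf3a and Smg8 overlap; Upf1 is far lower in rRNA-depleted than in poly(A) RNA.

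Smg5 had the largest log2 fold change of the 9 in poly(A) RNA, while in rRNA-depleted RNA Upf2 had a larger one. Smg5 had 36.03, 36.3 and 33.8 RPKM in the 3 Sfpq-siRNA libraries against 16.4, 17.7 and 15.7 RPKM in the 3 Luc libraries. The groups were far apart, and the spread within each was small (35.4 ± 1.37 against 16.6 ± 1.03 RPKM, SD, n = 3 each). The log2 fold change was 1.07 (SE 0.10, limma adjusted p = 4.63e-05), and 1.71% of all tested genes rose at least as much. In rRNA-depleted RNA Smg5 was 26.5 RPKM in the Sfpq-siRNA library and 14.1 RPKM in the Luc library. The call held in each of 15 alternatives, with a log2 fold change between 1.03 and 1.12.

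Smg6, the endonuclease of the pathway, moved the other way. Its level was 2.01, 2.42 and 2.20 RPKM in Sfpq-siRNA libraries against 3.08, 3.32 and 3.38 RPKM in Luc libraries. All Sfpq-siRNA values lay below all Luc values, and the log2 fold change was -0.48 (SE 0.12, limma adjusted p = 0.010). The rRNA-depleted libraries had 1.93 RPKM with Sfpq siRNA and 3.14 RPKM with Luc siRNA. Smg6 was the least abundant factor in poly(A) RNA of both groups. The serine racemase gene Srr overlaps it in the RefSeq table, with a mean that ran opposite (log2 fold change 0.32, limma adjusted p = 0.0907), and strand is not given for the counting.

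The ratio of the levels per length sets Smg5 and Smg6 side by side within each library. Smg5 over Smg6 was 17.95, 14.99 and 15.4 in Sfpq-siRNA libraries against 5.32, 5.35 and 4.64 in Luc libraries, and 13.7 against 4.49 in rRNA-depleted RNA. The ratio did not overlap between the groups. This separation, and the p-value that follows, were fixed once Smg5 lay above and Smg6 below all Luc values. They add nothing to the changes of Smg5 and Smg6 given above. An exact two-sided permutation test gave p = 0.1, the smallest that 3 against 3 libraries allow, and 0.167 after Benjamini-Hochberg adjustment over the 5 ratios computed, which were chosen with the values known.

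The promoters of 4 changed factors are shown because these factors moved apart: Smg5 with the largest rise in poly(A) RNA, Smg6 with the fall, and Smg9 and Upf1, which rose and share a motif. Windows run from 250 bases before to 50 bases after the start in RefSeq on build GRCm38.p6, not the build of the expression files, and all 9 factors had 1 window. Capitals mark exact matches, on either strand, to the 8 motifs searched, a GC box, a CCAAT box, an E-box, a CRE, an ETS core, the NRF1 palindrome, a YY1 motif and a TATA motif; no 2 matches overlap in the 4 windows shown. The Smg5 window is chr3:88336010-88336309 on the plus strand, Smg6 chr11:74925604-74925903 on the plus strand, Smg9 chr7:24399378-24399677 on the plus strand and Upf1 chr8:70353230-70353529 on the minus strand.
Smg5: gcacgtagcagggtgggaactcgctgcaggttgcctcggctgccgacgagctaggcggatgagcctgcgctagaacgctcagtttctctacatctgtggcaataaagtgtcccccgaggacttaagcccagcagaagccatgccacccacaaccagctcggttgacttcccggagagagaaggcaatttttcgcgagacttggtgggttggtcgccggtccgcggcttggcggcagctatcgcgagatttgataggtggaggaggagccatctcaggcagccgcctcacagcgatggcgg
Smg6: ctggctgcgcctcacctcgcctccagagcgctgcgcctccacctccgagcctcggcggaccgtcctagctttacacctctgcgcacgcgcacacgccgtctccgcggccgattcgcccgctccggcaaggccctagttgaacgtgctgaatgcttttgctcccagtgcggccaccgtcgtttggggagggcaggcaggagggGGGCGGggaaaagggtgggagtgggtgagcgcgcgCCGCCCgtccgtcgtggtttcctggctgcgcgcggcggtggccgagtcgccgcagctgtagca
Smg9: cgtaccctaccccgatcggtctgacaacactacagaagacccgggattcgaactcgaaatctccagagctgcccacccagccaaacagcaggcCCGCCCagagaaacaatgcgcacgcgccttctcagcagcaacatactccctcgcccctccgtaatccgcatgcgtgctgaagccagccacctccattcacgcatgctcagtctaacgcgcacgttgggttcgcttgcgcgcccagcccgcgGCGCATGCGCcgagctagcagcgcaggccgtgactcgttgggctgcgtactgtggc
Upf1: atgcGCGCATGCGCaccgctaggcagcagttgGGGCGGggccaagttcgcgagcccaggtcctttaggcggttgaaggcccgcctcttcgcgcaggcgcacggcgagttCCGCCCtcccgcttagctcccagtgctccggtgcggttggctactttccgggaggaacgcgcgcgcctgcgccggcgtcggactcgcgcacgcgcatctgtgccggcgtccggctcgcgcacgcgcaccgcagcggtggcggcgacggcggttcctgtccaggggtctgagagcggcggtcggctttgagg

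The NRF1 palindrome occurred in the windows of 2 of 9 factors, Upf1 and Smg9, and in 0.971% of all 32851 windows. A GC box, searched as GGGCGG, was present in 7 of 9 windows, against 35.7% of all windows. A CCAAT box, searched by those letters, was present in 4 of 9, against 37.4%. The ETS core CCGGAAG was found in 1 window, that of Smg8, against 8.86% of all windows. The YY1 motif AAGATGGC was found in 1, that of Upf3b, against 2.75%. No window of the 9 held the E-box CACGTG, found in 7.15% of all windows. None held the CRE letters TGACGTCA (1.79% of all windows), and none held the TATA motif TATAAA (13.6%). The Smg5 window had none of the 8 motifs. Upf2, which rose, and Smg6, which fell, each held GC boxes and none of the other motifs. Whether these letters bear on the changes in level was not tested. The 9 windows held between 18 and 47 CpG dinucleotides, against a median of 7 over all windows, of which 29.7% held at least 18. Shares of the motifs among windows as rich in CpG were not computed. These are matches of letters only, and binding was not measured.

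Among the recognition and kinase factors, Upf1 and Smg9 rose. Upf1 had 26.1, 32.9 and 27.8 RPKM in Sfpq-siRNA libraries against 22.2, 25.3 and 19.8 RPKM in Luc libraries. All Sfpq-siRNA values lay above all Luc values, by a narrow margin, and the log2 fold change of 0.36 (SE 0.13) only just passed (limma adjusted p = 0.0495). Its second row, at 19.3 to 32.2 RPKM in the poly(A) libraries, gave 0.36 as well. The Upf1 call ended in 9 of 15 alternatives, with the same direction in each of these 9 (log2 fold change 0.27 to 0.43, limma adjusted p between 0.0502 and 0.201), among them every omission of an Sfpq-siRNA library and of Luc replicate 1 or 3. In the RefSeq table Upf1 overlaps Gdf1 and Cers1, which also rose (log2 fold changes 1.01 and 0.88, limma adjusted p = 0.00280 and 0.00683); their part in the Upf1 value was not tested.

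Smg9, a subunit of the Smg1 kinase complex, had 21.4, 23.3 and 22.03 RPKM in Sfpq-siRNA libraries against 13.9, 15.6 and 9.19 RPKM in Luc libraries. The Sfpq-siRNA values were close together, and the lowest Luc value was that of replicate 3. The log2 fold change was 0.80 (SE 0.17, limma adjusted p = 0.00604), and 0.58 without Luc replicate 3 (limma adjusted p = 0.000307). In rRNA-depleted RNA Smg9 was 11.9 RPKM with Sfpq siRNA and 8.16 RPKM with Luc siRNA.

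Smg8, the other regulatory subunit, had 7.08, 6.57 and 6.69 RPKM in Sfpq-siRNA libraries against 6.92, 6.85 and 7.66 RPKM in Luc libraries. The groups overlapped, and the 95% interval of the difference ran from 0.81 to 1.12 times (limma adjusted p = 0.627). The ratio of Smg9 over its partner Smg8 was 3.03, 3.55 and 3.29 in Sfpq-siRNA libraries against 2.01, 2.28 and 1.20 in Luc libraries. An exact two-sided permutation test gave p = 0.1 (adjusted 0.167), where 0.1 is the smallest that 3 against 3 libraries allow. This ratio, too, was chosen with the values known. Since Smg8 overlapped between the groups, the ratio mainly restates the change of Smg9 given above.

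The kinase Smg1 had 6.98, 8.70 and 8.54 RPKM in Sfpq-siRNA libraries against 6.28, 5.76 and 8.11 RPKM in Luc libraries. Luc replicate 3 lay within the Sfpq-siRNA range. The log2 fold change of 0.26 (SE 0.15) did not pass (limma adjusted p = 0.193), with a 95% interval from 0.95 to 1.503 times. Without Luc replicate 3 it passed (0.39, limma adjusted p = 0.0135). In rRNA-depleted RNA Smg1 was 11.5 RPKM with Sfpq siRNA and 7.36 RPKM with Luc siRNA.

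Of the factors that bridge Upf1 to the exon junction complex, Upf2 rose and both Upf3 paralogs did not pass. Upf2 had 9.42, 10.9 and 9.81 RPKM in Sfpq-siRNA libraries against 5.59, 4.70 and 8.09 RPKM in Luc libraries. Every Sfpq-siRNA value was above every Luc value, although Luc replicate 3 came near. The log2 fold change was 0.70 (SE 0.17, limma adjusted p = 0.0114). It was 0.90 without Luc replicate 3 (limma adjusted p = 5.59e-05), and it missed the threshold without Sfpq replicate 2 (0.64, limma adjusted p = 0.0510). In rRNA-depleted RNA Upf2 was 7.92 RPKM with Sfpq siRNA and 3.96 RPKM with Luc siRNA.

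Upf3a, which in mouse cells has been described as a weak activator or an antagonist of the pathway, had 23.9, 33.4 and 34.1 RPKM in Sfpq-siRNA libraries against 26.3, 29.4 and 29.6 RPKM in Luc libraries. Sfpq replicate 1 was the lowest of the 6 values and the other two Sfpq-siRNA libraries the highest, so the groups overlapped (log2 fold change 0.08, 95% interval 0.85 to 1.32 times, limma adjusted p = 0.679). Upf3b had 2.94, 3.54 and 3.87 RPKM in Sfpq-siRNA libraries against 3.70, 3.40 and 5.34 RPKM in Luc libraries. Again the highest Luc value was that of replicate 3, and the groups overlapped (log2 fold change -0.22, 95% interval 0.66 to 1.12 times, limma adjusted p = 0.335). Upf3a exceeded Upf3b in every library, by between 5.55 and 9.43 times, and the ratio overlapped between the groups (8.78 ± 0.658 in Sfpq-siRNA against 7.10 ± 1.55 in Luc libraries, SD, n = 3 each; exact permutation test, two-sided, p = 0.2).

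**Figure D2:**
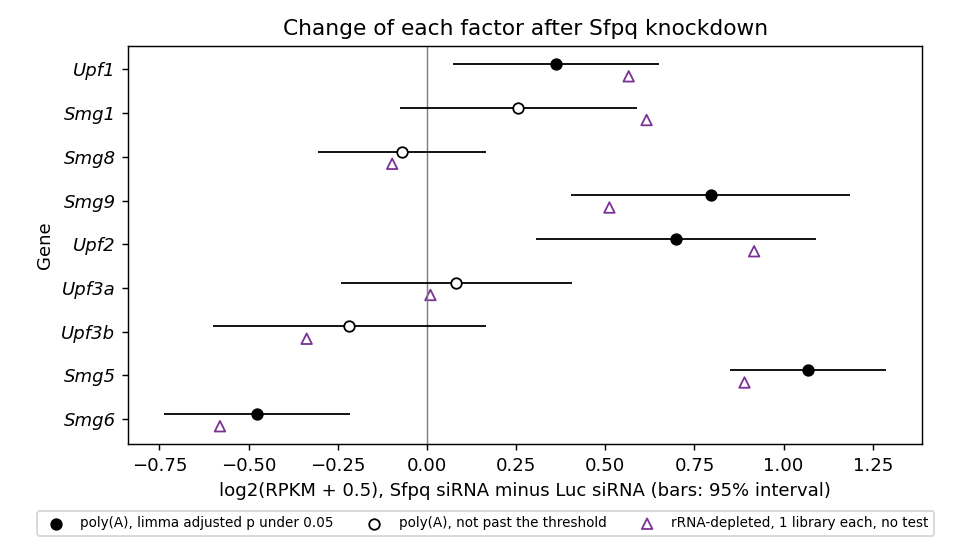
Difference in log2(RPKM + 0.5), Sfpq siRNA minus Luc siRNA, for each NMD factor; circles with 95% intervals are poly(A) RNA (filled where the limma adjusted p is under 0.05), and triangles are rRNA-depleted RNA with 1 library per group. Smg5, Smg9, Upf2 and Upf1 lie above 0 and Smg6 below 0 in both preparations, and Upf3a lies near 0 in both.

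With single rRNA-depleted libraries no test can be made. The log2 ratio was largest for Upf2 (0.92) and Smg5 (0.89), followed by Smg1 (0.62), Upf1 (0.57), Smg9 (0.51), Upf3a (0.01), Smg8 (-0.10), Upf3b (-0.34) and Smg6 (-0.58). At least 1.5-fold on this scale, 3 of 9 factors were higher and 0 lower, where 7.86% of 11386 genes were higher, 13.3% lower and 21.1% past it in either direction; Upf1 and Smg6 lay just inside that limit. The ratio had the same sign as the poly(A) fold change for every factor, although Upf3a was small in both (0.01 against 0.08). The share of all genes with the same sign is not given here, so this is not a trait particular to the factors. The median log2 ratio was 0.51 over the 9 factors and -0.02 over all genes.

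The order of the factors differed between the groups. In poly(A) RNA after Sfpq siRNA, Smg5 (35.4 RPKM), Upf3a (30.5) and Upf1 (28.9) led, with overlapping ranges, and Smg9 (22.3), Upf2 (10.03), Smg1 (8.08), Smg8 (6.78), Upf3b (3.45) and Smg6 (2.21) followed. In that lower part only Smg1 and Smg8, as neighbours, overlapped. In Luc libraries Upf3a led (28.4 RPKM), followed by Upf1 (22.4), Smg5 (16.6) and Smg9 (12.9) with separate ranges, then by Smg8 (7.15), Smg1 (6.72) and Upf2 (6.13), whose neighbouring ranges overlapped. Upf3b (4.15) and Smg6 (3.26) were lowest. Smg5 was thus first of the 9 with Sfpq siRNA but below Upf3a and Upf1 with Luc siRNA. Summed over the 9 factors, the level was 136, 158 and 149 RPKM in Sfpq-siRNA libraries against 104, 112 and 107 RPKM in Luc libraries.

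Upf1 differed between the preparations more than any other factor. It was 5.14 RPKM in the rRNA-depleted Sfpq-siRNA library and 3.31 RPKM in the rRNA-depleted Luc library, which is 5.62 and 6.76 times below the poly(A) mean of the same treatment. On the log2(RPKM + 0.5) scale its level in rRNA-depleted RNA minus that in poly(A) RNA was -2.38 with Sfpq siRNA and -2.59 with Luc siRNA, against medians over all tested genes of -0.51 and -0.45. Only 2.63% and 1.83% of tested genes had a difference as low or lower. For the other 8 factors the difference lay between -0.88 and 0.49. Smg1 was the only factor with more RPKM in rRNA-depleted than in poly(A) RNA in both treatments. In rRNA-depleted RNA Upf1 was at rank 6 of 9 with Sfpq siRNA and rank 7 with Luc siRNA, against ranks 3 and 2 in poly(A) RNA. The preparations were not compared by a test, since each treatment had 1 rRNA-depleted library.

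**Figure D3:**
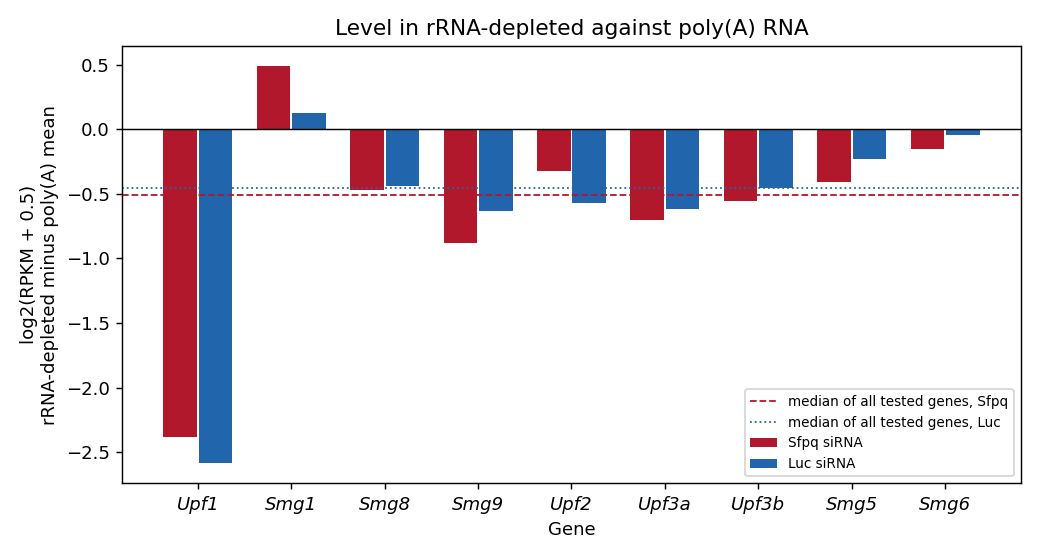
Difference in log2(RPKM + 0.5) between the rRNA-depleted library and the mean of the 3 poly(A) libraries of the same treatment, for each NMD factor, with Sfpq siRNA in red and Luc siRNA in blue; dashed and dotted lines are medians over all tested genes. Upf1 stands at -2.38 and -2.59, while the other factors lie between -0.88 and 0.49.

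Among the genes whose pattern over the 8 libraries was most like that of Smg5 were Mcam, a cell adhesion molecule, and Mlst8, a subunit of the mTOR complexes. Pearson's r with Smg5 was 0.998 for Mcam and 0.996 for Mlst8 among 10795 genes compared, as a description over libraries that share treatments. Mcam averaged 31.04 ± 1.71 RPKM in poly(A) Sfpq-siRNA libraries and 8.95 ± 1.31 RPKM in Luc libraries (SD, n = 3 each). Mlst8 averaged 11.1 ± 0.341 RPKM in Sfpq-siRNA libraries and 4.01 ± 0.445 RPKM in Luc libraries (SD, n = 3 each).

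The exon junction complex marks spliced mRNA for Upf3b and Upf2. Of its 10 listed genes, 2 rose, 0 fell and 8 did not pass with limma, and the counts were also 2 and 0 at an unadjusted p under 0.05. The 2 of 10 that rose are near the 21.3% over all tested genes, of which 18.6% fell. The core subunit Casc3 (27.2 ± 0.159 RPKM in Sfpq-siRNA and 19.5 ± 0.739 RPKM in Luc libraries, SD, n = 3 each; log2 fold change 0.47, limma adjusted p = 0.00351) and the peripheral protein Pnn (0.39, limma adjusted p = 0.0430) rose. The Pnn call ended in 6 alternatives, among them without Sfpq replicate 1, 2 or 3 and without Luc replicate 1 or 2. The list median was 0.19.

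Of 17 other genes linked to the pathway, 3 rose, 3 fell and 11 did not pass, with a median of -0.06. Both counts are near the shares over all tested genes, 21.3% higher and 18.6% lower. The helicase Dhx34, which promotes Upf1 phosphorylation, had 3.76 ± 0.563 RPKM in Sfpq-siRNA and 2.02 ± 0.329 RPKM in Luc libraries (SD, n = 3 each; log2 fold change 0.76, limma adjusted p = 0.0036). The helicase Mov10, a partner of Upf1, also rose (0.72, limma adjusted p = 0.0042). Stau1, which recruits Upf1 to double-stranded RNA in a related decay pathway, fell to 8.46 ± 0.256 RPKM in Sfpq-siRNA libraries, against 14.9 ± 0.658 RPKM in Luc libraries (SD, n = 3 each; log2 fold change -0.78, limma adjusted p = 0.000304). Its paralog Stau2 also fell (-0.37, limma adjusted p = 0.0322), and was named after its values were seen. Without Luc replicate 3, 5 of these 17 rose.

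Decapping and 5′ decay factors act downstream of Smg5. Of 16, 5 rose, 1 fell and 10 did not pass, with a median of 0.26. The 6 called are near the 40% called over all tested genes, of which 21.3% were higher and 18.6% lower. Xrn1, the 5′ exonuclease, had 3.49, 3.84 and 3.74 RPKM in Sfpq-siRNA libraries against 2.04, 1.81 and 2.28 RPKM in Luc libraries (log2 fold change 0.72, limma adjusted p = 0.00138). The decapping enzyme Dcp2 rose (0.54, limma adjusted p = 0.00423) and the helicase Ddx6, an activator of decapping, fell (-0.53, limma adjusted p = 0.00695). The count of those that rose was 3 with median-ratio scaling or without Sfpq replicate 1, and 8 without Luc replicate 3.

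2 classes of transcripts known to include NMD substrates were listed, and the difference between them was not tested. Over all tested genes, 21.3% rose and 18.6% fell. Of 10 measured noncoding snoRNA host RNAs, 9 rose and 0 fell, with a median of 1.07; at an unadjusted limma p under 0.05 the counts were also 9 and 0. The host that did not pass was Snhg3 (log2 fold change -0.02), named after its values were seen. Snhg12 had 192, 182 and 190 RPKM in Sfpq-siRNA libraries against 55.3, 57.8 and 99.5 RPKM in Luc libraries. Its groups were far apart, with Luc replicate 3 the highest control (log2 fold change 1.45, limma adjusted p = 0.000481). Snhg7 (1.34, limma adjusted p = 1.9e-05) and Snhg6 (1.28, limma adjusted p = 0.000811) rose as well. In the second class, 15 mRNAs of stress genes, many with upstream open reading frames, 9 fell, 1 rose and 5 did not pass. Their median was -0.39. Over the 15 alternatives, between 6 and 11 of these mRNAs fell, and between 7 and 9 of the snoRNA host RNAs rose. Slc7a11, a cystine transporter (-1.33, limma adjusted p = 0.000661), the cell cycle inhibitor Cdkn1a (-1.28, limma adjusted p = 4.21e-05) and the transcription factor Atf5 (-0.89, limma adjusted p = 0.0167) fell. The Atf5 call ended without Sfpq replicate 1, without Luc replicate 1 and with no filter on low values. The gene that rose was Gadd45b (0.76, limma adjusted p = 0.00148), whereas its relative Gadd45a fell (-0.77, limma adjusted p = 0.00174); both were named after their values were seen.

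**Figure D4:**
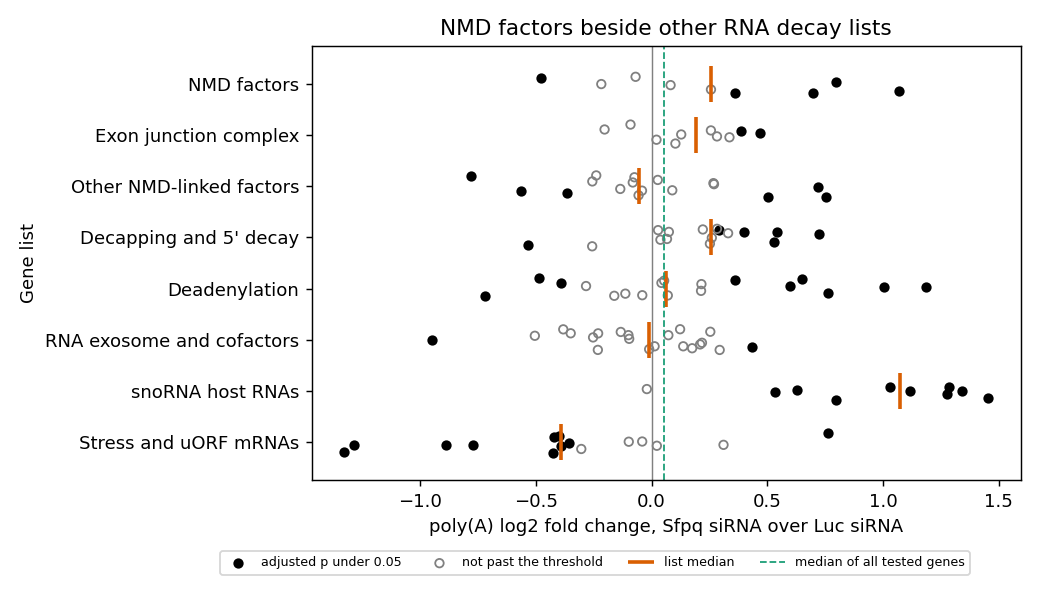
Poly(A) log2 fold change, Sfpq siRNA over Luc siRNA, of each tested gene in 8 lists; filled points have a limma adjusted p under 0.05, orange bars are list medians and the green dashed line is the median of all tested genes (0.05). NMD factors spread from -0.48 to 1.07, snoRNA host RNAs lie mostly above 0.5 and stress mRNAs mostly below 0.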

How the data were processed

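RNA was sequenced on an Ion Proton, per the labels' protocols, from poly(A)-selected RNA (3 libraries of Sfpq siRNA, 3 of Luc siRNA) and rRNA-depleted RNA (1 of each). The deposited values are RPKM per RefSeq transcript row, which the authors made; the submitters' processing notes name TopHat2 2.0.10 and mouse build mm9. How RPKM was computed (program, transcript set, multi-mapped reads, strand) is not given in the sources used here. Pol II ChIP libraries were not analysed here. One Sfpq-siRNA library, replicate 2 by its title, carries replicate 1 in its description; the title was used.

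Rows were named with the RefSeq table of GRCm38.p6, used for names and overlaps only, and the row with the highest mean stood for a gene. log2(RPKM + 0.5) was tested with limma 3.58.1 in R 4.3.3 (with a mean-variance trend), without a replicate block, on the 6 poly(A) libraries and on genes averaging 0.5 RPKM or more. Same-numbered libraries did not deviate together in every pair, so numbers were not taken as pairs. Single rRNA-depleted libraries were compared at 1.5-fold, with no test. Ratios of 2 genes were compared with exact permutation tests (scipy 1.17.1). Simulated data took the means and spreads of this comparison (11524 genes). In them limma recovered 25.4%, 80.0% and 98.4% of changes of 0.5, 1 and 2 on the log2 scale. Only 67, 65 and 61 genes were given these changes, whereas 40% of tested genes were called in the real data. The Benjamini-Hochberg threshold depends on that share, so these recoveries need not hold for the real comparison. The members and lists were chosen with earlier results of these data known; 116 of 118 symbols in the member and gene lists were found. Besides the 9 factors and Sfpq, the text names in each list the 3 called genes with the largest absolute log2 fold change among those averaging 1 RPKM or more, and the 3 genes most correlated with the most changed factor. Some results that these rules and tests gave are not reported here. Alternatives were other pseudocounts, filters, scalings, limma without trend, a replicate block, averaging a gene's rows and leaving out each library.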

Additional observations from a re-analysis of the deposited data

How the results depend on the processing

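Of 135 alternative values of the 9 factors in poly(A) RNA, 123 kept direction and side of the threshold. Smg5 (log2 fold change 1.03 to 1.12), Smg9 (0.58 to 0.95) and Smg6 (-0.54 to -0.41) kept their calls in all 15 alternatives each. The Upf1 call ended in 9, with pseudocount 0.1 (limma adjusted p = 0.0502), no filter (0.0794), median-ratio scaling (0.0770), limma without trend (0.0584) and without 5 of the 6 libraries, Luc replicate 2 being the exception. Upf3a, not called, turned to -0.0075 without Sfpq replicate 3 and was 0.25 without Sfpq replicate 1; the cause was not tested. Leaving out 1 library, the factors called higher numbered 2 to 4, with 2 without Sfpq replicate 2, and genes called higher over all numbered 1546 to 3621, with 1546 without Sfpq replicate 2 and 1631 without Sfpq replicate 3. In rRNA-depleted RNA, pseudocount 0.1 put 1 factor (Smg6) at least 1.5-fold lower, against 0, and 4 factors at least 1.5-fold higher, against 3; Upf1 was the added one (log2 ratio 0.62), also with median-ratio scaling (0.59). The replicate block gave 2681 genes higher and 2309 lower, and 4 factors higher and 1 lower; it changed no call of a factor, and same-numbered libraries correlated in their deviations at 0.33, -0.04 and 0.16. Absolute depth is unknown, so no counting error can be given, and a single rRNA-depleted library per treatment allows no test.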

Other observations

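Enzymes that shorten the poly(A) tail, and their regulators, act on mRNAs downstream of Smg5. Of 18 deadenylation genes, 6 rose, 3 fell and 9 did not pass, with a median log2 fold change of 0.06. Over all tested genes, 21.3% rose, 18.6% fell and 40% were called. Pan2, a subunit of the Pan2-Pan3 deadenylase, had 18.4, 19.9 and 20.9 RPKM in Sfpq-siRNA libraries against 8.10, 8.50 and 8.62 RPKM in Luc libraries (1.18, limma adjusted p = 3.02e-05). Cnot6, a catalytic subunit of the Ccr4-Not complex, rose (1.00, limma adjusted p = 0.00292), as did its subunit Cnot2 (0.76, limma adjusted p = 0.00266). The 3 that fell, named after their values were seen, were the antiproliferative adaptors Tob2 (-0.72, limma adjusted p = 0.00446) and Btg1 (-0.49, limma adjusted p = 0.0446) and the Ccr4-Not subunit Cnot10 (-0.39, limma adjusted p = 0.0282). The number that fell was 1 without Sfpq replicate 1, Sfpq replicate 2 or Luc replicate 1.

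Of 21 genes listed with the RNA exosome, among them its cofactors and other decay factors, 1 rose, 1 fell and 19 did not pass. The list median was -0.01. Over all tested genes, 21.3% rose and 18.6% fell. Dis3l2, a 3′ exonuclease among the other decay factors listed, fell in poly(A) RNA (log2 fold change -0.95, limma adjusted p = 0.000632). It had 1.33 ± 0.215 RPKM in Sfpq-siRNA libraries, against 3.03 ± 0.343 RPKM in Luc libraries (SD, n = 3 each). The single rRNA-depleted libraries had 0.832 RPKM of Dis3l2 with Sfpq siRNA and 1.04 RPKM with Luc siRNA, within the 1.5-fold limit. The exosome core subunit Exosc8 rose (0.43, limma adjusted p = 0.00845). Without Luc replicate 3, 4 rose and 3 fell, and 3 fell without Luc replicate 2, with median-ratio scaling or with quantile normalization.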
